A study of Rattus norvegicus with 9 samples.

Results

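Fetal rat liver cells carrying the OC.2 surface antigen were compared with adult rat hepatocytes. The comparison took, by sample title, the 3 OC.2+ fetal arrays and the 3 adult hepatocyte arrays, 6 of the 9 arrays of the study, and covered 14497 genes, all those that a probe annotation gave a single symbol. All cells came from livers of F344 rats, and RNA of each preparation was hybridised to its own Affymetrix Rat ST 1.0 array. The adult cells were hepatocytes of rats 5 to 6 weeks old, freed by collagenase perfusion in steps. The OC.2+ cells came from livers of embryonic day 19, digested with collagenase, and were immunopurified for leucine aminopeptidase, an antigen of hepatic cells, and for OC.2, described by the submitters as a marker of ducts. A further 3 arrays held fetal cells of the same day of which the labels give the same aminopeptidase antigen without OC.2 (OC.2- cells). They serve here to show where the OC.2+ cells differed from other fetal cells. They also entered the fit, which took its spread from all 9 arrays, and the mean levels taken over the 9 arrays. The labels call the arrays of a group biological replicates without saying how many livers or litters went into a preparation, and they do not give the sex of the animals.

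The liver of a late rat fetus is a site of blood formation as well as a developing epithelium. Red cell precursors and granulocytes mature between cords of hepatoblasts, the progenitors that give rise to hepatocytes and to the cells of bile ducts. Hepatocytes secrete most plasma proteins, make urea, glucose and bile acids, and oxidise and conjugate drugs and steroids, and many of these functions are switched on only around or after birth.

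In OC.2+ cells most genes of red cells, granulocytes and cell division were higher than in adult hepatocytes, and nearly the whole hepatocyte programme was lower. Ahsp, the chaperone of alpha-globin, had the largest difference in intensity upward at 220-fold, and the granule protein gene Ngp of neutrophils followed at 127-fold. Cyp2c11, a P450 that hydroxylates steroids, had the largest difference in intensity downward at 205-fold. Of 407 measured genes on 14 lists of hepatocyte functions, 385 were lower and 6 higher. Albumin was among the few that lay near the adult level, at a log2 difference of -0.30 that became -0.79 after cyclic loess normalization, with its intensity near the top of the range.

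Over all genes, 8034 differed at a limma adjusted p under 0.05 (55.4%), 4643 of them higher in the OC.2+ cells (32.0%) and 3391 lower (23.4%), and these are the shares against which the counts of the lists below are to be read. At least 2-fold differences were called for 1133 genes upward (7.82%) and 1616 downward (11.1%), and the arrays of the groups did not overlap for 62.2% of genes. The median gene differed by 0.11 on the log2 scale. Median intensity over all rows, with or without a symbol, was 87.7 to 88.9 on the OC.2+ arrays and 79.5 to 81.0 on the adult arrays. The split of calls depended on the scaling of the arrays. It was 3640 higher and 3609 lower under quantile normalization, 3024 and 4086 under median centring, and 3066 and 4193 under cyclic loess. Differences of the size of these shifts therefore have no settled direction. Log2 intensities of all rows correlated at 0.991 to 0.992 between OC.2+ arrays, at 0.988 to 0.991 between adult arrays and at 0.829 to 0.840 across these groups. In these bulk samples, fewer cells of a type and less RNA per cell cannot be told apart. The arrays give no detection call, so a gene low on all arrays may or may not have been expressed. Of 53 olfactory receptor genes, a family foreign to liver that was added after values were seen, the 95th percentile was 7.46 in the OC.2+ cells and 7.13 in adult hepatocytes. Of the 380 hepatocyte genes above that level in adult hepatocytes, 246 were not above it in the OC.2+ cells, Cyp2c11 among them, and Ahsp and Ngp were not above it in adult hepatocytes. Where 1 group lies at such a level, a fold and its interval describe array intensities, and the fold in RNA may be larger.

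**Figure D1:**
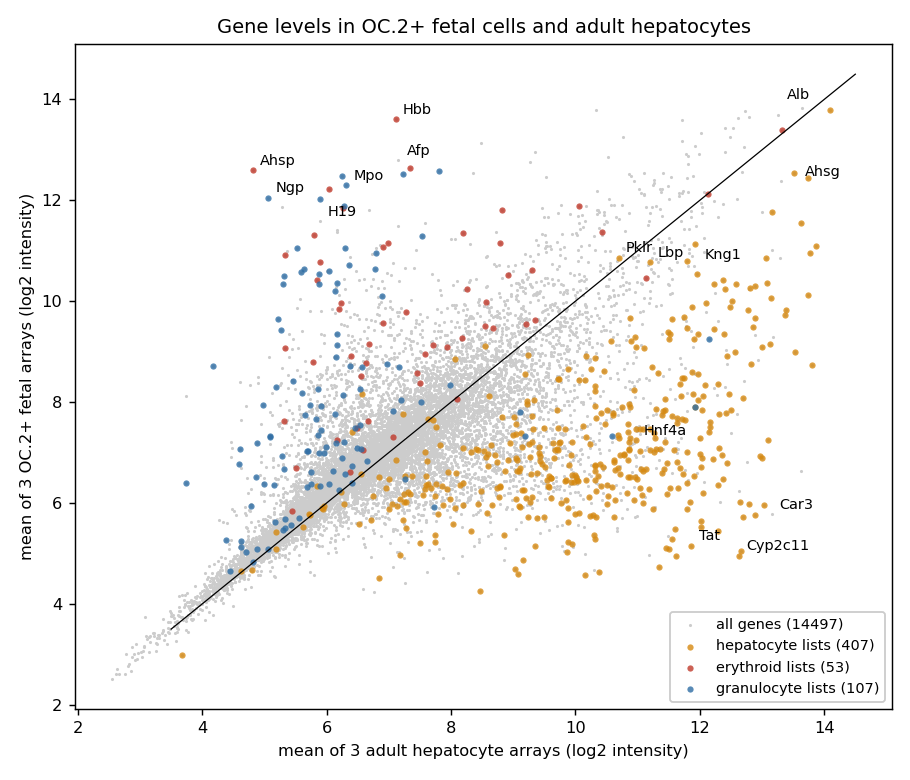
Mean log2 intensity in adult hepatocytes (horizontal axis, n = 3) against that in OC.2+ fetal cells (vertical axis, n = 3) for 14497 genes in grey, with genes of the hepatocyte lists in orange, of the erythroid lists in red and of the granulocyte lists in blue. The diagonal marks equal levels; most hepatocyte genes (385 of 407 called lower) lie below it, down to Cyp2c11 at 205-fold lower, and most red cell (48 of 53 called higher) and granulocyte genes (88 of 107) above it, up to Ahsp at 220-fold higher.

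The labels were checked against defining markers. The labels call the OC.2+ cells fetal hepatocytes. Hnf4a, the nuclear receptor that maintains hepatocyte identity, read 7.29, 7.17 and 7.25 on the OC.2+ arrays and 11.09, 10.95 and 10.90 on the adult arrays, all in log2 intensity. It was 13.4-fold (95% interval 11.6 to 15.4, limma adjusted p = 2.55e-12) lower, with no overlap. The biliary keratin gene Krt7 read 6.03, 6.09 and 6.10 on the OC.2+ arrays and 6.02, 6.13 and 5.97 on the adult arrays, which overlapped (difference 0.03, limma adjusted p = 0.829). Krt19, the other keratin of ducts, read 5.85, 6.10 and 6.10 against 5.56, 5.62 and 5.77, a difference of 0.37 (adjusted p = 0.00417) that missed the threshold under quantile normalization (adjusted p = 0.0627) and under cyclic loess (0.22, adjusted p = 0.0617). Epcam, an adhesion molecule of ductal and progenitor epithelium, was 0.25 lower on the log2 scale (adjusted p = 0.0349), a call that ended without adult replicate 1 or 2 or without OC.2+ replicate 1 or 2 (adjusted p = 0.0753, 0.0928, 0.0817 and 0.146). Further hepatocyte markers were lower as well, Apoa1 at a log2 difference of -1.89, Ttr at -2.81, Cps1, and Alb by a small step. Some fetal liver genes went the other way. Afp, the defining plasma protein of fetal hepatic cells, was 50.3-fold higher, and A2m and Dlk1 were higher too. Each of these was lower than in the OC.2- cells, with log2 differences of -0.87, -2.54 and -2.38. Of 41 bile duct and progenitor genes 18 were higher (43.9%, against 32.0% of all genes) and 7 lower (17.1% against 23.4%). Of the 53 olfactory receptor genes 43.4% were higher. Markers of hepatocytes were thus lower and some of fetal liver higher, while Krt7, Krt19 and Epcam, markers of ducts, differed little. Genes of blood cells were higher beside them, and the cells are called OC.2+ fetal cells throughout. Short descriptions of these samples read LAP-OC2+, and the isolation text names double positive selection for the OC.2- cells too, so the grouping rests on titles and cell type labels.

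Promoters of 5 genes are shown because they carry short motifs of known regulators of red cell, granulocyte and hepatocyte genes, the groups on which the results turn. Each runs from 250 bases before the start of the gene to 50 bases after it, 5′ to 3′ on the strand of the gene, from RefSeq (GRCr8). The sources used here do not give the build of the array annotation, so these positions are those of RefSeq alone. Capitals mark the motif. In Alas2, the red cell enzyme that begins haem synthesis (chrX:22895200-22895499, + strand), AGATAA, the core bound by GATA factors, lies 136 to 131 bases before the start. In Hbb, beta-globin (chr1:167663672-167663971, - strand), CCACACCC, a CACC box of the kind bound by Klf1, lies 98 to 91 bases before it. In Prtn3, a serine protease of neutrophil granules (chr7:10476147-10476446, - strand), GAGGAAGT, a core of Ets factors such as Spi1, lies 93 to 86 bases before it. In Afp, alpha-fetoprotein (chr14:17875596-17875895, - strand), and in its neighbour Alb (chr14:17906930-17907229, - strand), GTTAATNAT, a motif of Hnf1 factors, lies 135 to 127 and 82 to 74 bases before the starts.
Alas2: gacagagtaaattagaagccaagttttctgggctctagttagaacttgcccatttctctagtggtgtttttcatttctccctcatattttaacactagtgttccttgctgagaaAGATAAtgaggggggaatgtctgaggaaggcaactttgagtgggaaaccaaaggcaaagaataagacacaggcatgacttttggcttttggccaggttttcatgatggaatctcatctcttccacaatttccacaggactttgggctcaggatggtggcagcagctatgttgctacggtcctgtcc
Hbb: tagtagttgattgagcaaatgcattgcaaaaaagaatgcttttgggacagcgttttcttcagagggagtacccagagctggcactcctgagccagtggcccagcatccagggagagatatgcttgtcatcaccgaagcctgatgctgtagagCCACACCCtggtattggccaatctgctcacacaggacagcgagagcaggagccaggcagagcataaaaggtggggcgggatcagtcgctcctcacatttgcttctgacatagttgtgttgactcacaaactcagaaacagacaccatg
Prtn3: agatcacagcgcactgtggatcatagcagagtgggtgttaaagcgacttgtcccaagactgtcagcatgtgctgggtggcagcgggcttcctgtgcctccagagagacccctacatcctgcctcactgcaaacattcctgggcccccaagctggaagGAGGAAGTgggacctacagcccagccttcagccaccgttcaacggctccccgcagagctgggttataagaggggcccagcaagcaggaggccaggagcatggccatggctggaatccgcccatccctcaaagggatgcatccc
Afp: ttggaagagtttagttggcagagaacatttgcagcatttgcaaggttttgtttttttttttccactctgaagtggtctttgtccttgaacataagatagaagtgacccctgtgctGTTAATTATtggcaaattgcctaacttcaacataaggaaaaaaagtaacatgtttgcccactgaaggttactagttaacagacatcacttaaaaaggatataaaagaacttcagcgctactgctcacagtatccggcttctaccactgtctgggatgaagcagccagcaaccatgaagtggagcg
Alb: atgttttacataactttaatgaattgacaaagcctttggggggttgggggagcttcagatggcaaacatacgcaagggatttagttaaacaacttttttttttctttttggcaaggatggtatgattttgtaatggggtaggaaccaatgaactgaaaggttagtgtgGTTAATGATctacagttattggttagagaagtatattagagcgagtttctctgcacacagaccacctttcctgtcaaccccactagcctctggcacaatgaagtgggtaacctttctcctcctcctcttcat

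Such windows were found for 11946 of the 14497 genes, and both strands were searched. AGATAA was in 9.33% of all windows, in 15% of those of the erythroid lists (6 of 40), in 13% of those of the granulocyte lists (10 of 77) and in 9.54% of those of the hepatocyte lists (31 of 325). CCACACCC was in 3.39% of all windows, in 7.5% of the erythroid ones (3 of 40), in 2.6% of the granulocyte ones (2 of 77) and in 3.69% of the hepatocyte ones (12 of 325). GAGGAAGT was in 2.49% of all windows, in 7.79% of the granulocyte ones (6 of 77), in 0 of the 40 erythroid ones and in 0.923% of the hepatocyte ones (3 of 325). GTTAATNAT was in 0.678% of all windows, in 4.31% of the hepatocyte ones (14 of 325) and in 0 of the 40 erythroid and 0 of the 77 granulocyte ones. Among all genes at least 2-fold higher in the OC.2+ cells (950 windows) the shares of these motifs were 8.0%, 4.53%, 4.21% and 0.316%, and among those at least 2-fold lower (1324 windows) 6.57%, 3.40%, 1.81% and 1.44%, so AGATAA was less frequent in both than over all windows. A match is a run of letters and not a measured site, and these shares are descriptions without a test.

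The secreted proteins of the hepatocyte were lower almost without exception. All 33 plasma carriers and lipoprotein genes were lower, with a median log2 difference of -3.56, as were all 31 complement and coagulation genes, with a median of -3.69. Of 23 protease inhibitors and acute phase genes, 22 were lower (median -3.60), and the other, A1bg, chosen after its values were seen, differed by -0.03 (adjusted p = 0.798). Hrg, a histidine-rich plasma glycoprotein, read 7.11, 6.71 and 6.98 on the OC.2+ arrays and 12.97, 12.95 and 12.97 on the adult arrays. The groups lay far apart, a 65.2-fold (95% interval 55.7 to 76.3, limma adjusted p = 1.45e-13) difference. Serpina3n, an acute phase serine protease inhibitor, was 135-fold (95% interval 115 to 158) lower, Pon1, the paraoxonase carried by high density lipoprotein, 89.2-fold, and C9, a component of the membrane attack complex, 40.9-fold. Mug1, an inhibitor of the alpha-macroglobulin family, was 140-fold lower, and Mug1l1, which may share its probe signal, 127-fold.

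Metabolic enzymes were lower as well. Of 32 urea cycle and amino acid breakdown genes 31 were lower (median -2.92), the other being Sdsl, picked out with its values known (0.03, adjusted p = 0.806). Methionine and one-carbon metabolism had 18 of 19 lower (median -3.14), gluconeogenesis and glycogen 14 of 15 (median -2.67), and fatty acid oxidation and ketogenesis all 25 (median -2.85). Cps1, the mitochondrial enzyme that starts the urea cycle, read 8.32, 8.31 and 8.45 on the OC.2+ arrays and 12.36, 12.20 and 12.29 on the adult arrays. Its 15.2-fold difference (95% interval 13.2 to 17.5) separated all arrays. Tat, which starts tyrosine breakdown, was 105-fold (95% interval 91.1 to 121) lower, Tdo2, which starts tryptophan breakdown, 98.0-fold, and Cdo1, a cysteine dioxygenase, 112-fold. The gluconeogenic enzymes G6pc1, Pck1 and Fbp1 were 57.4-fold, 42.1-fold and 28.0-fold lower. Of 29 sterol and fatty acid synthesis genes 27 were lower (median -1.94), and Thrsp, a regulator of lipogenesis, was the lowest at 60.0-fold. Mvd, a mevalonate pathway enzyme singled out with its values known, differed by -0.07 (adjusted p = 0.541).

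Cytochrome P450 and bile acid genes had the lowest medians of the 14 hepatocyte lists. Of 39 cytochrome P450 genes 34 were lower, all at least 2-fold, with a median of -4.07. The 5 others were seen in the values to be Cyp1a1, Cyp2a3, Cyp4b1, Cyp26a1 and Cyp20a1, none of which exceeded 6.28 in either group mean but Cyp20a1, which read 7.66 against 7.63. All 33 other phase I enzymes were lower (median -3.58), as were 20 of 21 bile acid synthesis and transport genes (median -3.99) and 27 of 32 phase II conjugation enzymes (median -3.12). Cyp2c11 read 4.76, 4.95 and 5.14 on the OC.2+ arrays and 12.78, 12.48 and 12.63 on the adult arrays, a gap of more than 7 log2 units. Cyp2e1, which oxidises ethanol, was 99.3-fold lower, the glutathione transferase Gstm2 77.8-fold, and Slc10a1, the bile salt uptake carrier, 50.1-fold. Cyp2c13 was 196-fold lower, but the Cyp2c enzymes can share probe signal. On a list of 14 genes known to differ between the sexes in rat liver, Cyp2c11 and Cyp2c13 among them, 12 were lower (median -6.03), and the part of sex in this was not tested.

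Transcription factors and membrane proteins of the hepatocyte were lower too, with medians nearer to 0. Of 30 liver transcription factors 29 were lower, with a median of -1.89. Besides Hnf4a, the bile acid receptor Nr1h4 was 13.6-fold lower and Creb3l3, a factor of fasting metabolism, 11.8-fold. Of 49 membrane transporters and receptors 45 were lower (median -2.43). Igf1, the growth factor that the adult liver releases under growth hormone, read 7.26, 7.19 and 7.31 against 13.12, 13.10 and 13.06, and the growth hormone receptor Ghr 6.67, 6.40 and 6.67 against 11.83, 11.66 and 11.70. Both were lower without overlap, at 57.4-fold and 35.4-fold. The mean level of the hepatocyte genes per array was 7.10 to 7.19 in the OC.2+ cells and 10.1 to 10.2 in adult hepatocytes, while that of 107 granulocyte genes was 7.91 to 8.02 against 6.07 to 6.11 and that of 53 erythroid genes 9.75 to 9.84 against 7.45 to 7.49. The part of these blood cell genes in the lower hepatocyte genes was not tested.

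**Figure D2:**
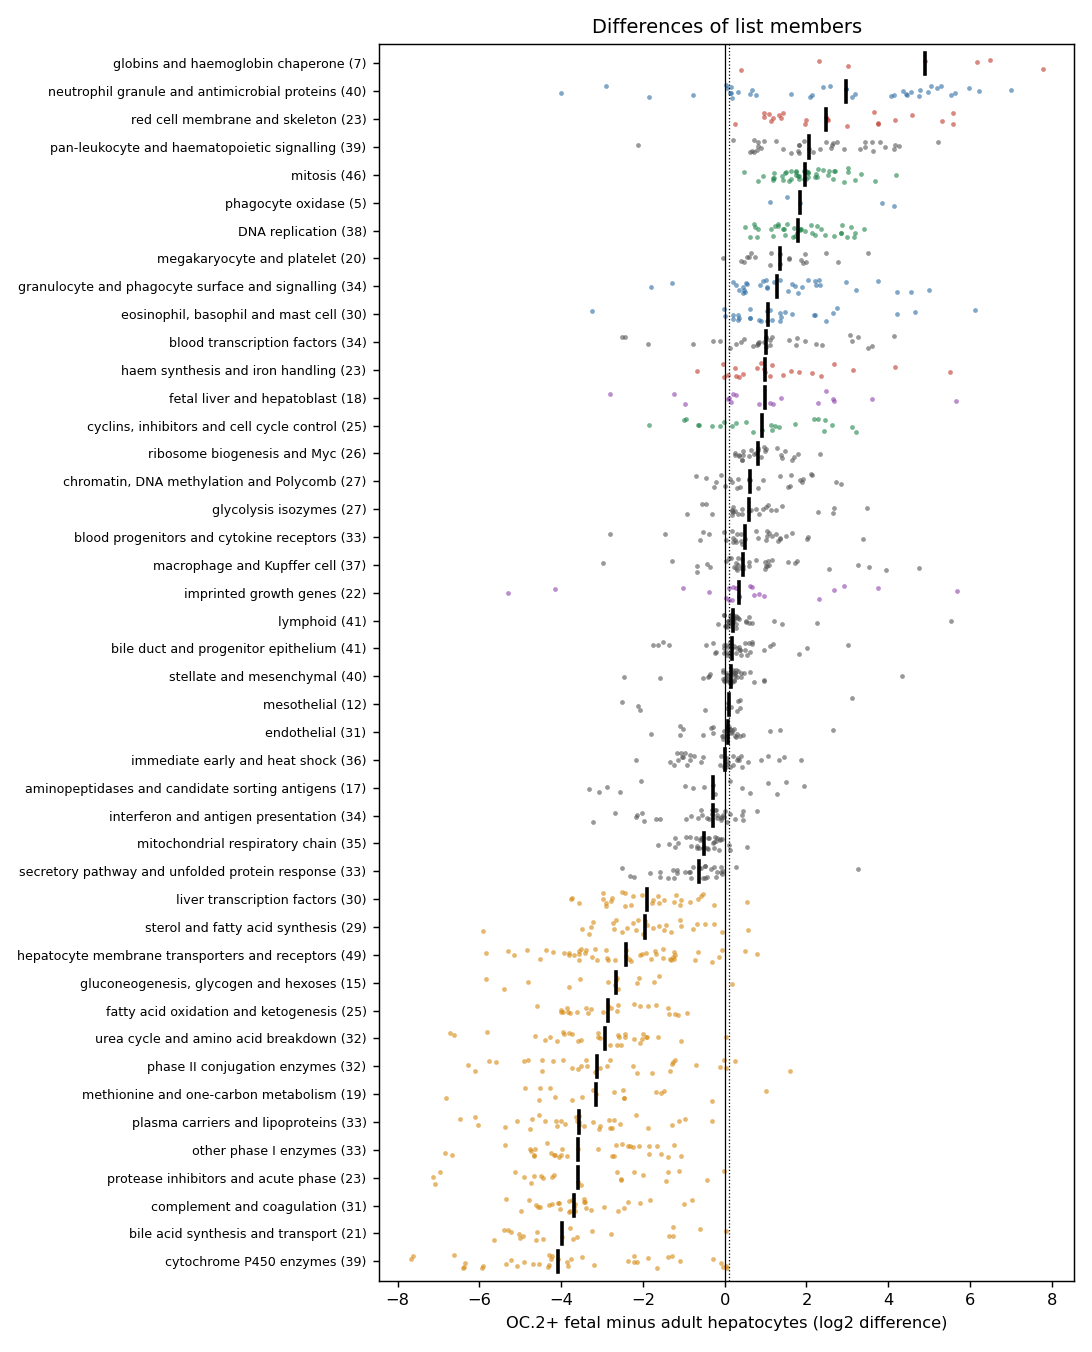
Log2 difference of OC.2+ fetal cells minus adult hepatocytes (horizontal axis) for every measured member of the gene lists (points, number of members in brackets). The list median is a black bar and the median of all genes, 0.11, a dotted line. The sex-biased list (median -6.03) and the families added after values were seen are not drawn. Colours mark hepatocyte (orange), fetal liver (purple), erythroid (red), granulocyte (blue), proliferation (green) and other lists (grey). The hepatocyte lists have medians from -4.07 to -1.89, the globins a median of 4.89 and the neutrophil granule genes a median of 2.97.

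The depth of the decrease varied among the 407 hepatocyte genes. By their log2 differences, 111 were lower by more than 4, 89 by 3 to 4, 89 by 2 to 3 and 75 by 1 to 2, while 41 lay between -1 and 1 and 2 were higher by 1 or more. The 95% interval of the difference lay within 1 log2 unit of 0 for 35 of them, 8.60%, against 76.1% of all genes. Many of the 35 were dim in both groups.

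The 12 hepatocyte genes nearest to the adult level, among those with a mean log2 intensity of at least 8 over the 9 arrays, had several functions. Pklr, the pyruvate kinase of liver, whose gene also encodes the red cell isozyme, read 10.90, 10.86 and 10.85 on the OC.2+ arrays and 10.54, 10.86 and 10.69 on the adult arrays. The arrays overlapped, and the difference of 0.17 (95% interval -0.02 to 0.35, limma adjusted p = 0.116) was called after quantile normalization (0.44, adjusted p = 0.00158) and without adult replicate 2 (0.25, adjusted p = 0.0239). Albumin read 13.85, 13.74 and 13.77 against 14.19, 14.07 and 14.01, lower in every OC.2+ array by a small step (-0.30, adjusted p = 0.00575), near the top of the intensity range, where differences can be compressed. Under quantile normalization this step was -0.62, under median centring -0.44 and under cyclic loess -0.79. Mthfd1, a folate enzyme that dividing cells also use for nucleotide synthesis, was 0.31 lower on the log2 scale (adjusted p = 0.0178). This call ended after quantile normalization (-0.05, adjusted p = 0.675), without adult replicate 2 (adjusted p = 0.0754) and without OC.2+ replicate 3 (adjusted p = 0.0536).

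Others of the 12 came from lists of which most members were far lower. Lbp, the plasma protein that binds bacterial lipopolysaccharide, read 10.78, 10.85 and 10.68 on the OC.2+ arrays and 11.07, 11.17 and 11.35 on the adult arrays. The 1.34-fold decrease (95% interval 1.15 to 1.57) separated the arrays but was not called after quantile normalization (adjusted p = 0.151). On the OC.2- arrays Lbp read 8.71, 8.86 and 8.50, so that the OC.2+ cells exceeded the OC.2- cells by 2.08 log2 units (limma adjusted p = 4.93e-09). Ahsg, the fetal plasma carrier fetuin-A, was 1.95-fold lower, and the kininogens Kng1 and Kng2 were 1.74-fold and 1.98-fold lower, though they are close relatives and the mean of its probe sets gave Kng1 a difference of -0.31 (adjusted p = 0.0907). Srebf2, the regulator of sterol synthesis, was 1.40-fold lower, Slc30a10, a manganese exporter, 1.56-fold, and Apoa4, an apolipoprotein, 2.19-fold. Relative to the OC.2- cells Pklr was higher too (0.72), while Ahsg, Kng1 and Kng2 were lower (-0.99, -1.86 and -1.82).

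The hepatocyte genes that were higher in the OC.2+ cells numbered 6. Gstp1, a glutathione transferase that is low in normal adult hepatocytes, read 8.22, 8.16 and 8.13 against 6.61, 6.38 and 6.72, a 3.04-fold (95% interval 2.58 to 3.57) increase without overlap. Gatm, which makes the creatine precursor, was 2.00-fold higher, Slc16a10, a carrier of aromatic amino acids, 1.74-fold, Elovl6, a fatty acid elongase, 1.49-fold, Dbp, a clock-controlled factor, 1.46-fold, and Igfbp2, a binding protein of insulin-like growth factors, 1.42-fold. The last call ended after cyclic loess (0.36, adjusted p = 0.0502). Relative to the OC.2- cells, Igfbp2, Elovl6, Gstp1 and Gatm were lower, with log2 differences of -2.08, -1.81, -0.78 and -0.63. Slc16a10 and Dbp were higher, with 1.44 and 0.50.

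**Figure D3:**
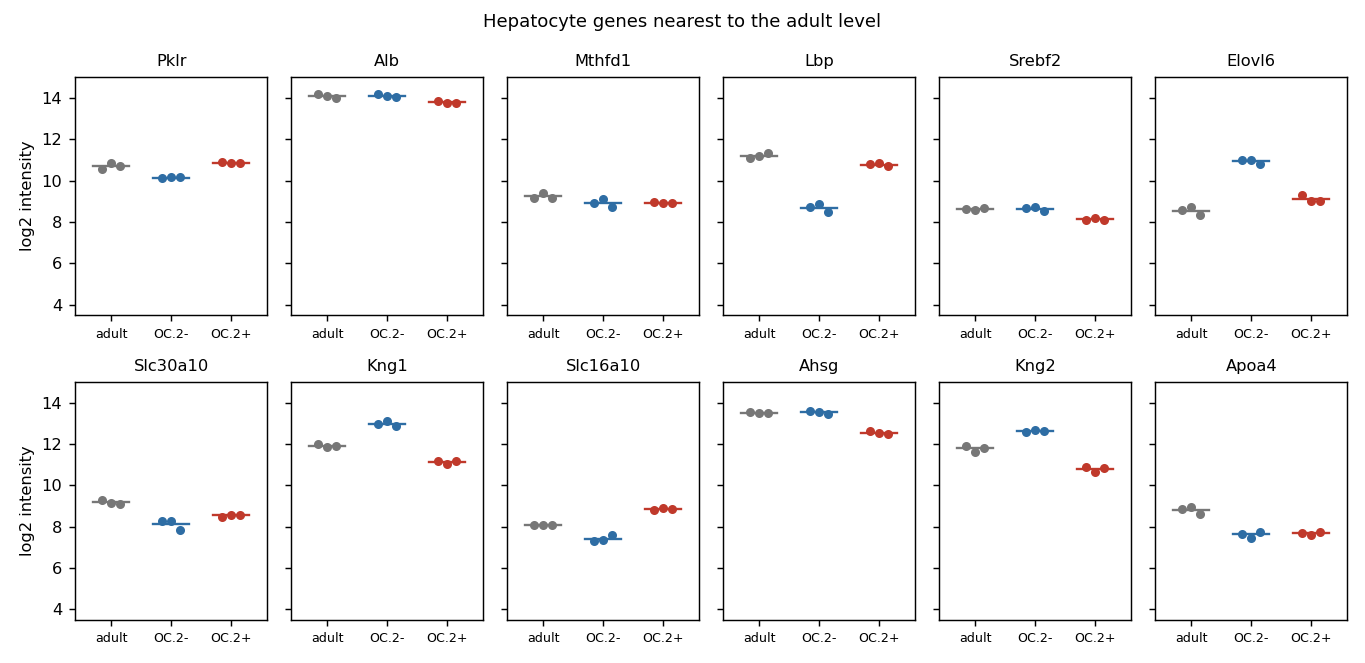
Log2 intensity per array (vertical axis; 3 dots per group, line at the mean) of the 12 hepatocyte genes nearest to the adult level, in adult hepatocytes, OC.2- and OC.2+ fetal cells. The OC.2+ dots of Pklr overlap the adult ones, those of Alb lie 0.30 below in the mean, and those of Lbp lie 2.08 above the OC.2- ones.

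Set beside the OC.2- cells, which share the adult arrays as reference, the hepatocyte genes were lower again in the OC.2+ cells. Of the 407 genes, 312 were lower and 9 higher when OC.2+ cells were set against OC.2- cells (18.2% and 20.3% of all genes), with a median difference of -1.41. The median difference from adult hepatocytes was -2.95 for the OC.2+ and -1.17 for the OC.2- cells. Plasma carriers and complement and coagulation genes had medians of -0.80 and -0.82 in the OC.2- cells against -3.56 and -3.69 in the OC.2+ cells, whereas cytochrome P450 genes had -2.28 and -4.07. Bhmt, a methyltransferase of the methionine cycle, read 12.33, 12.48 and 12.27 on the OC.2- arrays and 9.37, 8.78 and 8.81 on the OC.2+ arrays, with 13.54, 13.53 and 13.54 in adult hepatocytes. For Cyp2c11 the OC.2- arrays read 4.79, 4.65 and 4.78, next to the OC.2+ values (difference 0.21, adjusted p = 0.156), and for Car3, a carbonic anhydrase of adult liver, 5.80, 5.83 and 5.77 against 5.90, 5.76 and 5.69 (difference -0.01, adjusted p = 0.933). Bhmt thus differed between the fetal groups, whereas Cyp2c11 and Car3 were low in both.

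Genes of fetal liver were partly higher. Of 18 fetal liver and hepatoblast genes 11 were higher and 3 lower, with a median of 0.98. Afp, the fetal counterpart of albumin, read 12.79, 12.77 and 12.82 on the OC.2+ arrays and 7.28, 6.94 and 7.21 on the adult arrays. It was 50.3-fold (95% interval 43.6 to 58.1) higher, and A2m, a fetal protease inhibitor of the rat, was 3.59 log2 units higher. The 3 lower genes were Ttr, the thyroid hormone carrier (-2.81 on the log2 scale), Tbx3, a hepatoblast transcription factor (2.34-fold), and Ahsg. Of 22 imprinted growth genes 12 were higher and 4 lower (median 0.35). The non-coding RNA H19 was higher by 51.3-fold (95% interval 40.5 to 65.0), its imprinted partner Igf2, a fetal growth factor, 13.5-fold, Grb10, an adaptor that restrains growth signalling, 7.62-fold, and Dlk1, a hepatoblast surface protein, 6.37-fold. The imprinted transporters Slc38a4 and Slc22a18 were 39.7-fold and 17.8-fold lower. All of Afp, A2m, H19, Igf2, Grb10 and Dlk1 were lower in the OC.2+ cells than in their OC.2- counterparts, with log2 differences of -0.87, -2.54, -1.59, -2.70, -2.13 and -2.38.

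Red cell genes were higher nearly throughout. All 7 measured globin and chaperone genes were higher (median 4.89), all 23 genes of the red cell membrane and skeleton (median 2.48), and 18 of 23 genes of haem synthesis and iron handling (median 0.99). Hbb read 13.64, 13.60 and 13.57 on the OC.2+ arrays and 6.99, 7.17 and 7.17 on the adult arrays. All OC.2+ arrays lay more than 6 log2 units above the adult ones (90.3-fold, 95% interval 77.9 to 105, limma adjusted p = 6.14e-14). Hbb-b1, a second beta-globin gene that can share its probe signal, was 72.6-fold higher. Slc4a1, the anion exchanger of the red cell membrane, read 11.77, 11.85 and 11.92 against 6.26, 6.16 and 6.35, a 48.2-fold increase. The blood group protein gene Rhd was 48.3-fold and the red cell carbonic anhydrase Car1 39.6-fold higher.

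Within haem synthesis the isozymes parted. Alas2, the first enzyme in red cell precursors, read 11.25, 11.33 and 11.35 on the OC.2+ arrays and 5.73, 5.61 and 6.06 on the adult arrays, and was 45.6-fold (95% interval 38.5 to 54.0) higher. Alas1, the housekeeping and liver isozyme, read 10.50, 10.47 and 10.42 against 10.88, 11.21 and 11.30, and was 1.59-fold (95% interval 1.32 to 1.91) lower. The mitochondrial iron importer Slc25a37 was 17.8-fold and the transferrin receptor Tfrc 8.88-fold higher. Ferritin, the iron store, showed no called difference, at -0.01 for Fth1 (adjusted p = 0.9) and 0.07 for Ftl1 (adjusted p = 0.478), both picked after their values were seen. Of the 53 erythroid genes 42 were higher and 4 lower relative to the OC.2- cells (20.3% and 18.2% of all genes), with a median of 1.18.

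Of 34 blood transcription factors 26 were higher and 5 lower, with a median of 1.01. Klf1, the activator of red cell genes, read 10.68, 10.54 and 10.57 against 6.30, 6.68 and 6.41, and Gata1, the red cell and megakaryocyte GATA factor, 9.06, 9.01 and 9.06 against 5.37, 5.42 and 5.53. Neither overlapped the adult arrays (17.5-fold and 12.2-fold higher), and Gfi1b, a repressor of the same lineages, was 11.4-fold higher. The lower genes were Cebpa (5.67-fold) and Hhex (5.45-fold), both also factors of hepatocytes, Id2, an inhibitor of helix-loop-helix factors (3.65-fold), and, chosen with their values known, Etv6 (log2 difference -0.77) and Meis1 (log2 difference -0.28, adjusted p = 0.041).

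Granule proteins of neutrophils made up most of the remaining top genes. Of 40 neutrophil granule and antimicrobial genes 30 were higher and 4 lower, with a median of 2.97. Ngp read 12.13, 12.14 and 11.88 on the OC.2+ arrays and 5.09, 5.20 and 4.88 on the adult arrays. Mpo, the myeloperoxidase of primary granules, read 12.29, 12.38 and 12.21 against 6.14, 6.52 and 6.29. The groups lay more than 5 log2 units apart for both (Mpo 63.2-fold, 95% interval 54.0 to 73.9). The defensin gene Defa5, whose relatives can share its signal, was 75.2-fold higher, the calcium-binding proteins S100a9 and S100a8 36.7-fold and 23.4-fold, neutrophil elastase Elane 20.5-fold, lysozyme Lyz2 27.1-fold, and Prtn3, named for its promoter after its values were seen, rose from 6.17 ± 0.19 to 9.35 ± 0.08 (mean log2 intensity ± SD, n = 3). The lower genes were Hp, the haptoglobin that hepatocytes secrete (16.2-fold), the protease Ctsc (7.43-fold), and Wfdc2 (3.62-fold) and, singled out afterwards, Wfdc21 (log2 difference -0.78), both small secreted inhibitors.

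Of 34 surface and signalling genes of granulocytes and phagocytes 31 were higher and 2 lower (median 1.27). Clec7a, a receptor for fungal glucans, was 31.8-fold higher, Alox5ap, the helper of leukotriene synthesis, 23.5-fold and the histidine decarboxylase gene Hdc 18.5-fold. Csf3r, the receptor of granulocyte colony-stimulating factor, read 7.96, 8.02 and 7.82 against 5.93, 5.86 and 5.93, a 4.07-fold increase without overlap. All 5 measured phagocyte oxidase genes were higher (median 1.84): the membrane subunits Cybb (14.4-fold) and Cyba (log2 difference 1.53, chosen with its value known), the cytosolic Ncf1 (3.57-fold) and Ncf4 (log2 difference 1.12, likewise), and the GTPase Rac2 (17.7-fold). Of the 107 granulocyte genes 71 were higher and 10 lower relative to the OC.2- cells (20.3% and 18.2% of all genes), with a median of 0.98. Ngp read 5.60, 5.52 and 5.37 and Mpo 6.89, 6.67 and 6.90 on the OC.2- arrays, nearer to the adult than to the OC.2+ values. Hdc went the other way, reading 12.91, 12.91 and 12.81 on the OC.2- arrays, 2.51 log2 units above the OC.2+ cells (limma adjusted p = 2.92e-09).

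Other leukocyte lists followed in part. Of 39 genes shared by leukocytes 37 were higher (median 2.06). Ptprc, the leukocyte antigen CD45, read 8.16, 8.42 and 8.30 on the OC.2+ arrays and 5.58, 5.70 and 5.83 on the adult arrays, a 6.03-fold (95% interval 5.15 to 7.06) increase, while Mpeg1, a pore-forming protein of macrophages, was 4.36-fold lower. Of 30 eosinophil, basophil and mast cell genes 24 were higher and 1 lower (median 1.07). Prg2, the eosinophil major basic protein, was 69.9-fold and the eosinophil peroxidase Epx 25.2-fold higher, and the ectoenzyme Enpp3 9.55-fold lower. Of 20 megakaryocyte and platelet genes 19 were higher (median 1.35), with thrombospondin Thbs1 6.88-fold and the platelet chemokine Pf4 3.90-fold. Of 33 progenitor and cytokine receptor genes 23 were higher and 4 lower (median 0.50). The surface protein gene Prom1 of stem and progenitor cells was 4.07-fold higher, and Il6st, the receptor subunit shared by interleukin 6 family cytokines, was lower (log2 difference -2.81).

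Macrophage and lymphocyte genes moved less. Of 37 macrophage and Kupffer cell genes 26 were higher and 6 lower, with a median of 0.45. In the OC.2- cells 27 of them were higher than in adult hepatocytes (23.7% of all genes). Relative to the OC.2- cells 6 were higher and 15 lower in the OC.2+ cells (20.3% and 18.2% of all genes). Ccr2, the chemokine receptor of monocytes, was 15.3-fold and the lysosomal protein Cd68 2.91-fold higher in OC.2+ cells than in adult hepatocytes. Vsig4, a complement receptor of Kupffer cells, was 2.44-fold lower, and Clec4f and Marco, further Kupffer cell receptors, overlapped the adult arrays (0.04, adjusted p = 0.791, and 0.16, adjusted p = 0.117). Of 41 lymphoid genes 17 were higher and 0 lower (median 0.19), of which 9 to 10 were higher after the 3 other scalings, so the count depends on the scaling. Nkg7, a granule protein of cytotoxic lymphocytes, read 11.86, 11.85 and 11.76 against 6.21, 6.35 and 6.30, a 46.4-fold increase far above the rest of its list. Cd3g, a subunit gene of the T cell receptor complex, read 5.96, 5.76 and 5.92 against 4.53, 4.43 and 4.46. It was 2.65-fold (95% interval 2.35 to 2.99) higher without overlap, though below the olfactory receptor levels of 7.46 and 7.13 given above. Cd3e, of the same complex, at 0.23 (adjusted p = 0.0436), overlapped between groups and was not called after any of the other scalings (adjusted p = 0.423 to 0.502).

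**Figure D4:**
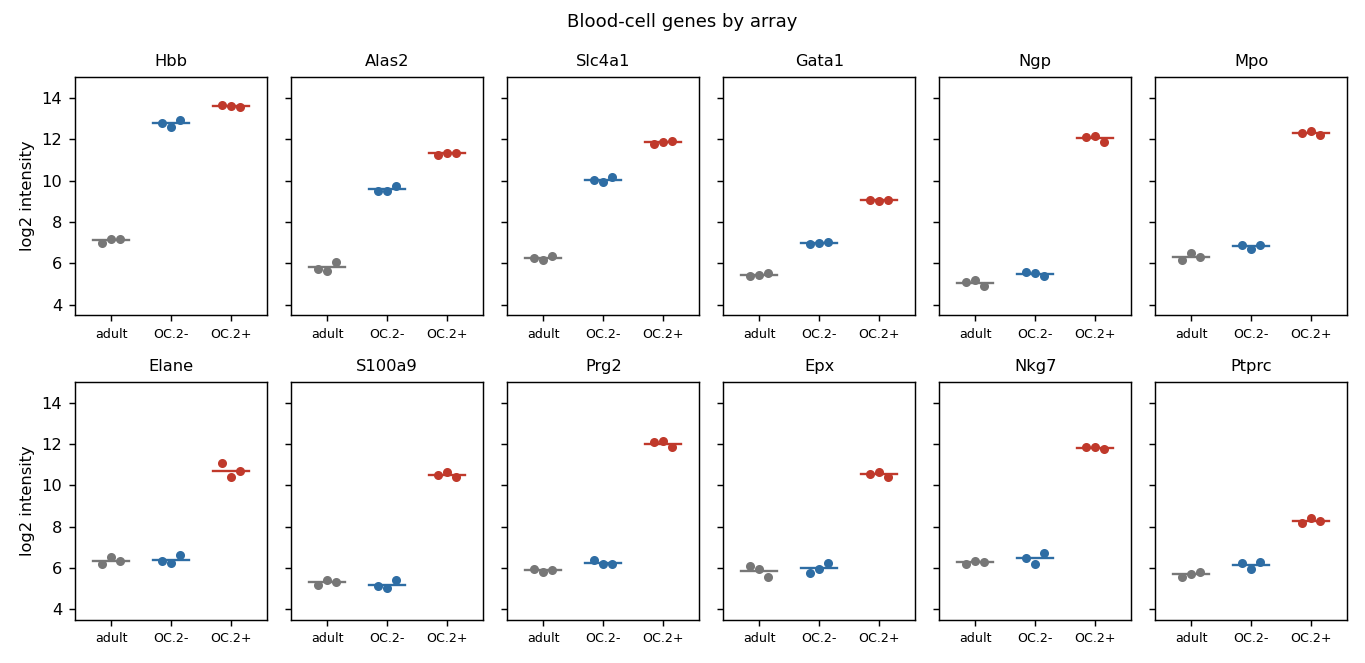
Log2 intensity per array (vertical axis; 3 dots per group, line at the mean) of 12 blood cell genes in adult hepatocytes, OC.2- and OC.2+ fetal cells. Hbb, Alas2, Slc4a1 and Gata1 are above the adult values in both fetal groups, whereas Ngp, Mpo and Nkg7 on the OC.2- arrays stay within 0.6 of the adult mean.

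The shares of endothelial (22.6%), stellate and mesenchymal (32.5%) and mesothelial genes (41.7%) that were higher lay around the 32.0% of all genes. Of 31 endothelial genes 7 were higher and 6 lower, with a median of 0.09, and the number higher was 3 after each of the other scalings. It was also 3 without adult replicate 1 and 4 without any 1 of the OC.2+ replicates. Ehd3, a membrane trafficking protein of endothelium, was 6.24-fold higher, and Kdr, the main receptor of vascular endothelial growth factor, 2.14-fold lower. Pecam1, an adhesion molecule of all endothelium, read 6.43, 6.53 and 6.40 against 6.22, 6.28 and 6.59, which overlapped (0.09, adjusted p = 0.466). Of 40 stellate and mesenchymal genes 13 were higher and 3 lower (median 0.15), with 8 higher after each other scaling and 8 without OC.2+ replicate 1. Vim, the filament protein of mesenchymal and also of blood cells, was 20.2-fold higher. The matrix proteoglycan Dcn was 1.94-fold higher, and Pdgfrb, a receptor of stellate cells, 3.01-fold lower. Of 12 mesothelial genes 5 were higher and 4 lower (median 0.12), with 2 higher after each other scaling and 3 without adult replicate 1. The sialomucin Podxl was 8.61-fold higher, and the simple epithelial keratins Krt18 and Krt8, also of hepatocytes, were 5.73-fold and 4.20-fold lower. Endothelial and stellate genes were largely lower relative to the OC.2- cells, at 23 of 31 and 29 of 40 (18.2% of all genes).

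The bile duct and progenitor list, the lineage that the OC.2 antigen is said to mark, had 18 of 41 genes higher (43.9%) and 7 lower, with a median of 0.19. Of the 53 olfactory receptor genes 23 were higher (43.4%) and 3 lower, with a median of 0.24. Spint1, an epithelial protease inhibitor, read 8.78, 8.96 and 8.98 against 5.56, 6.23 and 5.91, an 8.04-fold (95% interval 6.56 to 9.84) increase without overlap. The hyaluronan receptor Cd44, shared with leukocytes, was 3.51-fold, the surface protein Cd24, shared with blood precursors, 2.27-fold and the tetraspanin Tspan8 2.15-fold higher. The other higher genes were Prom1, Cldn7, Aqp1, Ggt1, Itga6, Itgb4, Itga2, Muc1, St14, Lgr5, Krt19, Sox4, Cftr and Ehf, and all of these but Prom1 differed by less than 2-fold. The calls of Sox4, Cftr and Ehf ended after each of the other scalings. Hes1, the Notch target, was 3.40-fold, Onecut1, a factor of hepatic and biliary development, 3.10-fold and the epithelial cadherin Cdh1 2.83-fold lower. Relative to OC.2- cells 7 of the 41 were higher and 9 lower, near the shares of all genes, 20.3% and 18.2%.

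Of 17 aminopeptidases and candidate sorting antigens, 6 were higher and 9 lower (median -0.28). Lap3, the cytosolic leucine aminopeptidase, read 8.81, 8.78 and 8.76 on the OC.2+ arrays and 10.76, 10.99 and 10.72 on the adult arrays, and was 4.11-fold lower without overlap. Anpep, the surface aminopeptidase of the bile canaliculus, was 5.93-fold lower, and Lnpep, a vesicle aminopeptidase, 2.08-fold higher. The sources used here do not name the gene of the sorted antigen.

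**Figure D5:**
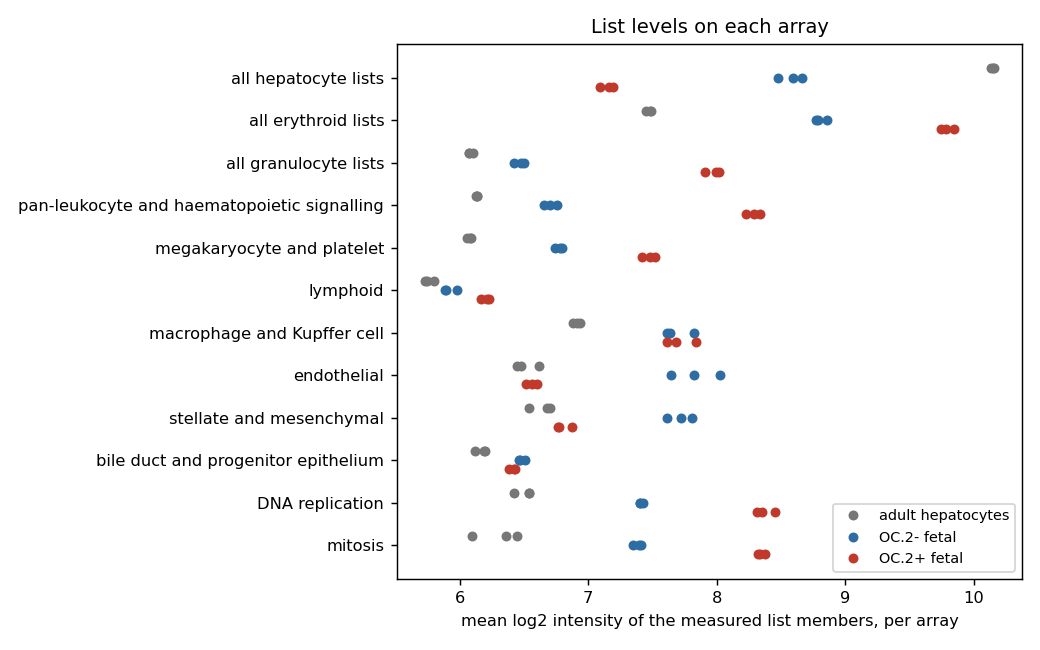
Mean log2 intensity of the measured members of each cell type list per array (horizontal axis), for adult hepatocytes (grey), OC.2- (blue) and OC.2+ fetal cells (red). Hepatocyte genes average 7.10 to 7.19 on the OC.2+ arrays against 10.1 to 10.2 on the adult ones, and endothelial genes 6.518 to 6.603 against 6.45 to 6.62, with 7.65 to 8.03 on the OC.2- arrays.

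DNA replication and mitosis genes were higher without exception. All 38 DNA replication genes (median 1.80) and all 46 mitosis genes (median 1.97) were higher. In the OC.2- cells 36 and 46 of these were also higher than in adult hepatocytes (23.7% of all genes), with medians of 0.89 and 0.98. Relative to the OC.2- cells 37 and 45 were higher in the OC.2+ cells (20.3% of all genes). Pcna, the sliding clamp of DNA polymerases, read 10.60, 10.61 and 10.76 on the OC.2+ arrays and 7.26, 7.36 and 7.14 on the adult arrays. The groups lay over 3 log2 units apart (10.6-fold, 95% interval 9.19 to 12.2). Plk1, a mitotic kinase, was 10.1-fold and Cdc25b, the phosphatase that triggers mitosis, 18.4-fold higher. Of 25 cyclin and cell cycle control genes 15 were higher and 6 lower (median 0.92), and the D-type cyclins parted, with Ccnd2 8.65-fold higher and Ccnd1 3.61-fold lower. Of 27 chromatin genes 19 were higher and 4 lower (median 0.63), among them the DNA methylation factors Uhrf1 (7.20-fold) and Dnmt1 (4.37-fold). The histone family, added after values were seen, had 26 of 32 higher and 0 lower, with a median of 2.00. In the OC.2- cells 22 of the histone genes were higher than in adult hepatocytes and 1 lower.

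Genes of ribosomes were higher, and most genes of secretion and respiration were lower. All 26 ribosome biogenesis genes were higher (median 0.81), with the nucleolar chaperone Npm1 at 5.00-fold. So were 70 of 71 cytosolic ribosomal protein genes (median 1.14, added after values were seen). Of 65 mitochondrial ribosomal protein genes 5 were higher and 18 lower (median -0.06), and of 37 proteasome genes 5 were higher and 11 lower (median -0.13), both added likewise. In the OC.2- cells 14 of the 26 ribosome biogenesis and 69 of the 71 cytosolic ribosomal protein genes were higher than in adult hepatocytes (23.7% of all genes). Of 33 secretory pathway and unfolded protein response genes 24 were lower (median -0.62). Lman1, a cargo receptor of secreted clotting factors, was 4.65-fold lower, and the 1 higher gene, the asparagine synthetase Asns, was 9.58-fold higher. Of 35 respiratory chain genes 26 were lower and 1 higher (median -0.50), with the succinate dehydrogenase subunits Sdha and Sdhb 3.10-fold and 2.58-fold lower.

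Of 27 glycolysis genes 18 were higher and 4 lower (median 0.59). Hk1, the hexokinase of red cells and most other tissues, was 11.2-fold, the glucose carrier Slc2a3 6.37-fold and the aldolase Aldoa 6.32-fold higher, while the lactate dehydrogenase Ldha was 1.89-fold lower. Of 34 interferon and antigen presentation genes 5 were higher and 17 lower (median -0.28), with the interferon-induced protease Usp18 9.30-fold lower. Of 36 immediate early and heat shock genes 10 were higher and 15 lower (median 0.01). The metallothionein Mt1, a metal store of fetal liver, read 13.70, 13.52 and 13.54 against 11.59, 12.19 and 11.36, a 3.67-fold increase, and the stress-induced factor Jun was 2.53-fold lower.

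Outside all lists, Lypd8l1, a Ly6-domain gene, read 11.92, 11.95 and 11.74 on the OC.2+ arrays and 5.10, 5.41 and 5.31 on the adult arrays, 96.7-fold (95% interval 81.0 to 115) higher. On the OC.2- arrays it read 5.99, 5.93 and 5.59. Among the lowest genes outside the lists, Car3 read 5.90, 5.76 and 5.69 against 13.31, 13.03 and 13.15, which is 167-fold (95% interval 146 to 191) lower.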

How the data were processed

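The authors deposited intensities on a linear scale for 9 arrays, 1 for each preparation. Per the labels' protocols, 150 ng of total RNA entered Affymetrix whole-transcript amplification. Partek 6.6 and RMA are named, without role or order, in the submitters' processing notes. RMA as usually run makes arrays alike and shrinks differences of dim genes. Of 28826 rows, 15209 had 1 gene symbol, 306 several and 13311 none. Log2 was taken, and the probe set with the highest mean stood for each of 494 genes with several, leaving 14497 genes with no filter on dim genes. The fit of group means used lmFit and eBayes of limma 3.58.1 (R 4.3.3, figures in Python 3.11.15) over all 9 arrays (6 residual degrees of freedom), with 2-sided tests and Benjamini and Hochberg's adjustment over all genes. A call is an adjusted p under 0.05, and intervals are 95%. The median standard error was 0.10, and the number of arrays limits the precision.

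The members and lists were chosen with earlier results of these data known, so no list was tested and counts stand beside those of all genes. Named genes were the 10 highest and 10 lowest differences among genes without overlap, up to 3 called members each way of every list, the 12 hepatocyte genes of mean level at least 8 nearest to the adult level, the 6 hepatocyte genes highest in OC.2+ cells, fixed markers and ductal genes called higher. Some of these were left out of the text. Sox9 was not analysed here, and some other results are not reported here. In simulated data over 14497 genes, 100 genes were changed by 0.5 log2 units and 100 by 1. The fit recovered 55% and 96% of them and called 4 unchanged genes. In the real comparison 8034 genes were called, far more than were changed in the simulation, so these rates cannot be carried over to it. Alternatives covered scaling, filters on dim genes, probe set means, all rows, variance and array weights, fits of fewer groups, a replicate block, thresholds and leaving out each replicate.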

Additional observations from a re-analysis of the deposited data

Results flagged for a closer look

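Of the 238 named genes, 11 moved against adult hepatocytes in opposite directions in the fetal groups, by called differences between these groups, and 3 of them by at least 2-fold each way. The named genes were picked mostly for their differences from adult hepatocytes. The share of such genes over all genes was not counted, so whether 11 is many cannot be told. Lyz2, lysozyme, was 5.91 log2 units higher in OC.2+ cells than in their OC.2- counterparts (limma adjusted p = 1.3e-10). It was 4.76 above the adult level in OC.2+ cells and 1.15 below it in OC.2- cells (difference -1.15). Kdr differed by -2.90 between OC.2+ and OC.2- cells (adjusted p = 1.89e-09) and was lower than in adult hepatocytes in the OC.2+ cells (-1.10) and higher in the OC.2- cells (1.80). Bmp2, a growth factor of sinusoidal endothelium, differed by -2.97 (adjusted p = 2.78e-08), with -1.09 and 1.88 against adult hepatocytes. The other 8 differed from adult hepatocytes by less than 2-fold in at least 1 fetal group. Higher in OC.2+ than OC.2- cells was Slc16a10 (1.44). Lower were Lyve1 (-3.14), Krt18 (-2.94), Krt8 (-2.74), Apoa1 (-2.58), Maf (-1.88), Kng1 (-1.86) and Kng2 (-1.82), with limma adjusted p of 2.02e-08 or less. For Lyve1 the step from adult hepatocytes to OC.2+ cells (-0.33) was not called after quantile normalization (adjusted p = 0.111), nor without adult replicate 1 or 3 (0.0541, 0.19), OC.2+ replicate 1 or 3 (0.141, 0.0931) or OC.2- replicate 3 (0.0529). Rows without a single gene symbol, which entered the array medians and correlations but no test of genes above, also differed. Of these 13617 rows, 588 (4.32%) were at least 2-fold higher and 494 (3.63%) at least 2-fold lower in OC.2+ cells than in adult hepatocytes, the largest difference being 7.05 log2 units.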

How the results depend on the processing

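Across the alternatives, 985 of the counts recomputed stayed within 1.5 times the reported ones and 40 did not. Of 238 named genes 220 kept their side of the threshold under every setting, and none changed direction among those called. Most of the named genes were picked for large called differences in these data, so this says little of other genes. Genes higher than in adult hepatocytes numbered 3024 after median centring, 3066 after cyclic loess, 2664 among genes at or above the median level and 8223 over all rows, with 4025 to 4818 when a replicate was left out. Hepatocyte genes near the adult level numbered 20 among genes at or above the median level, 17 for an interval within 0.5 log2 units and 9 at a mean level of at least 8 over the 9 arrays, a filter that genes high in adult hepatocytes alone can pass. A threshold of 0.01 gives that interval count no value of its own. Among genes at or above the median level, fewer genes being tested, the members called higher were 14 for granulocyte and phagocyte surface genes, 3 for the phagocyte oxidase, 7 for eosinophil, basophil and mast cell genes, 10 for megakaryocyte, 6 for lymphoid, 24 for pan-leukocyte, 12 for progenitor, 2 for mesothelial and 4 for bile duct genes. At or above the 25th percentile they were 14 for eosinophil, basophil and mast cell genes and 8 for lymphoid genes. Quantile normalization, median centring and cyclic loess gave 10, 9 and 9 lymphoid, 3, 3 and 3 endothelial, 8, 8 and 8 stellate and 2, 2 and 2 mesothelial genes higher. At a threshold of 0.01 these lists had 11, 3, 8 and 3. Leaving out a replicate gave 3 to 8 endothelial, 8 to 15 stellate, 3 to 5 mesothelial and 12 to 19 lymphoid genes. Same-numbered OC.2+ and adult replicates had deviations from their group means that correlated at 0.01, 0.08 and 0.11. For same-numbered OC.2+ and OC.2- replicates the values were 0.05, -0.15 and -0.16, and the numbers were not taken as pairing. With the replicate block 4442 genes were higher and 3335 lower than in adult hepatocytes, 7689 of the 7777 calls being among the 8034 without it. Samples did not all correlate best with their own number. The cause of these changes was not tested. Dim genes limit what can be said of markers near the bottom of the range.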
